A study of Homo sapiens with 4 samples.

Results

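Described here are 8 genes for receptors and adhesion molecules of monocytes, macrophages and neutrophils: the Fc receptor chains FCGR1A and FCER1G, the pattern recognition receptors CD14 and CLEC7A, the chemoattractant receptors FPR2 and PTAFR, the leukocyte integrin chain ITGB2 and the inhibitory receptor LILRB3. They were chosen by symbol among the protein-coding genes that the authors' deposited table gives as differentially expressed, and 8 of 8 were found among its 742 distinct symbols, or 515 lower ones. The choice used this comparison, so the values below are a description and no test was made on them.

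The study asked how silencing of the long non-coding RNA HMRHL changes the transcriptome of K562 cells. K562, a human cell line established from chronic myelogenous leukaemia, carries BCR-ABL1 and has erythroid and megakaryocytic features. HMRHL is related to mrhl, a mouse RNA, and is encoded within an intron of PHKB. Cells at passages 15 to 20, given as lymphoblasts in the labels, received scramble siRNA or HMRHL siRNA, and stranded libraries were made from total RNA isolated 36 hours later. Each of the 2 groups had 2 libraries. The labels do not say whether these came from separate cultures, and all are of 1 cell line.

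The authors' deposited table gives 1 fold change per gene, with no value per library, error, p-value, expression level or depth. The values were read as log2, knockdown relative to scramble; the table states neither the scale nor the direction. PHKB and HMRHL had 0 rows in the authors' deposited table. For HMRHL, a non-coding RNA, this says nothing, since the table is one of protein-coding genes. The silencing itself could therefore not be checked from it. A list of selected genes also cannot show which cell type the RNA came from: of 25 erythroid and 15 megakaryocyte markers, 0 and 3 were listed.

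Phagocytes meet antibody-coated particles through Fc receptors, microbial surfaces through receptors such as CD14 and the beta-glucan receptor CLEC7A, and gradients of peptides and lipids through G protein-coupled receptors. Activating Fc receptors signal through paired tyrosines in an immunoreceptor tyrosine-based activation motif (ITAM), which recruit the kinase SYK. CLEC7A carries an activation motif with a single tyrosine. Inhibitory receptors such as LILRB3 signal through a motif called ITIM, which recruits phosphatases. Beta-2 integrins, made of ITGB2 and an alpha chain, hold leukocytes on vessel walls and bind complement-coated targets.

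The motifs lie in short coding stretches, printed here for the activating chain FCER1G, for CLEC7A, for the inhibitory receptor and for the integrin chain. The stretches were read from the principal coding transcripts of GENCODE release 29 (GRCh38) in the sense direction, in lower case, with the codon of each motif tyrosine, or of the phenylalanine in the integrin motifs, in capitals.
FCER1G activation motif, coding bases 193 to 237 of 258, chr1:161218718-161218919, plus strand, interrupted by an intron: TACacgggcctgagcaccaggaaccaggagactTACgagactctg
CLEC7A single-tyrosine activation motif, coding bases 37 to 54 of 603, chr12:10130029-10130046, minus strand: gatggaTATactcaatta
LILRB3 ITIM pattern, coding bases 1621 to 1638 of 1893, chr19:54217430-54217447, minus strand: gtgacgTATgccccggtg
LILRB3 ITIM pattern, coding bases 1777 to 1794 of 1893, chr19:54217195-54217212, minus strand: gtgaccTACgcccagctg
LILRB3 ITIM pattern, coding bases 1867 to 1884 of 1893, chr19:54217105-54217122, minus strand: agcatcTACgccactctg
ITGB2 integrin tail motif, coding bases 2251 to 2262 of 2307, chr21:44886416-44886427, minus strand: aatccccttTTC
ITGB2 integrin tail motif, coding bases 2287 to 2298 of 2307, chr21:44886380-44886391, minus strand: aaccccaagTTT
The ITAM pattern (tyrosine, any pair of residues, leucine or isoleucine, a spacer, and the same again) was found in 1 of the 8 coding sequences, that of FCER1G. By contrast the looser ITIM pattern matched 14 times and in all 8 genes, so its letters alone do not single out LILRB3. Only its matches in LILRB3 are printed.

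All 8 genes were listed as lower in the knockdown, at values from -1.22 for ITGB2 to -2.06 for PTAFR in the authors' deposited table. Of all listed symbols, 69.4% were lower (515 of 742), which is the background for this count; nothing is read from it, since the members were chosen from the same comparison. Read over all annotated protein-coding genes, 2.58% were listed as lower. Their median was -1.80 in the authors' deposited table, a 3.48-fold reduction if the values are log2, beside -1.71 (3.28-fold) for all 515 lower symbols. In bulk RNA, fewer cells with a transcript and less of it per cell cannot be told apart. No member had an error of its own, so differences among the 8 values cannot be set against replicate spread.

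**Figure D1:**
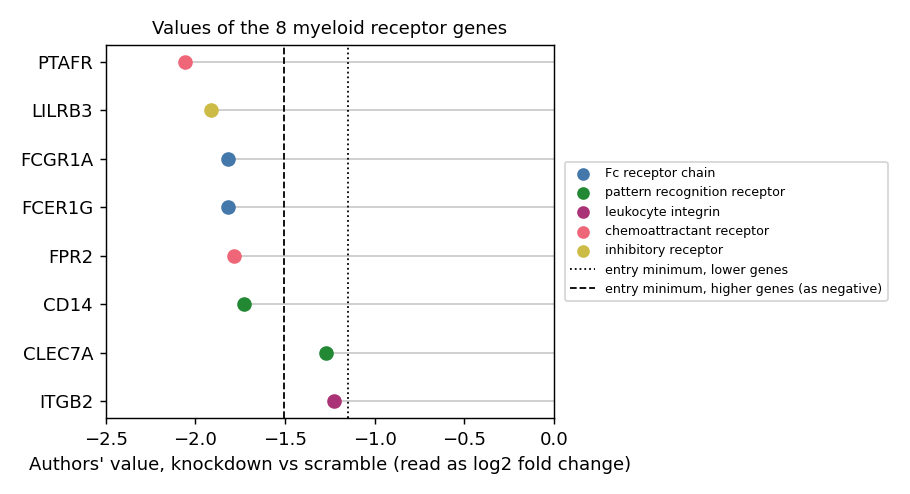
Values of the 8 genes in the authors' deposited table (horizontal axis, read as log2 fold change of knockdown against scramble), coloured by role. The dotted line is the lower gene nearest to 0 (-1.15) and the dashed line the smallest higher value mirrored (1.50 as negative); CLEC7A and ITGB2 lie between the lines and the other 6 genes beyond both.

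The Fc receptor chains stood almost side by side. FCGR1A, the high-affinity receptor for IgG, was at -1.82055 (3.53-fold lower) in the authors' deposited table. FCER1G, the common gamma chain that FCGR1A needs for surface expression and signalling, was at -1.8165 (3.52-fold lower) there. These partners in 1 receptor complex thus differed by 0.00405 on the log2 scale. Other listed symbols lay as close in the authors' deposited table: GPRASP1 (-1.81739) fell between the chains and BATF (-1.82093) beside FCGR1A. FCGR1A spans chr1:149782671-149792518 and FCER1G chr1:161215234-161220699, both on the plus strand of GRCh38. The remaining 22 of 24 genes on the Fc receptor list, among them the low-affinity receptors FCGR2A and FCGR3A, were not in the table.

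The FCGR1A value needs care on sequence grounds. Its coding sequence of 1122 bases is matched over 100% of its length at 98.9% identity by the pseudogene FCGR1CP, and over 80.8% at 98.9% by FCGR1B, so reads may have been shared among these loci. Exons of FCGR1A also overlap exons of the histone gene HIST2H2BF and of AC243772.2 on the opposite strand. For FCER1G no similar coding sequence and no overlapping exon was found. The sources used here do not give how the authors counted reads from similar genes or by strand.

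Among the partners of FCER1G on the list of ITAM signalling genes, direction was mixed. CD247, the zeta chain of the T cell receptor and another ITAM carrier, was at -1.48 in the authors' deposited table. ZAP70, the T cell relative of SYK, was at 2.69, and LAT2, an adaptor of myeloid and B cells, at 2.05 there. Of the 26 genes on that list, 2 were higher and 2 lower, and 1 of the lower ones is FCER1G itself, chosen from the table. At the share of all protein-coding genes listed, the list would hold 0.965. SYK, the ITAM adaptor TYROBP, and the CLEC7A effector CARD9 were not in the table, which says that they were not selected, not that their levels were equal.

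The receptors for microbial surfaces had unequal values. CD14, the GPI-anchored co-receptor that hands lipopolysaccharide to TLR4 and MD-2, was at -1.73 (3.31-fold lower) in the authors' deposited table. CLEC7A, also called Dectin-1, was at -1.27 (2.41-fold lower) there, a difference of 0.458 between the 2 genes on the log2 scale. This was the widest gap between neighbouring values among the 8. CD14 is a compact gene of 1974 bases at chr5:140631728-140633701, minus strand, and CLEC7A spans chr12:10116777-10130258, minus strand. Neither had a similar coding sequence elsewhere in the annotation.

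Most genes that work with these receptors were absent from the table, as were most protein-coding genes, of which 3.71% were listed. At that share, the Toll-like receptor pathway, lectin and NOD-like receptor lists below would hold 1.41, 1.67 and 0.668 listed genes. None of the 10 annotated Toll-like receptors was listed, nor LY96, which encodes MD-2. Of the 38 genes on the Toll-like receptor pathway list, only CD14 and IRF5, a transcription factor activated downstream of these receptors, were listed, IRF5 at -1.91 in the authors' deposited table. CLEC7A was the only 1 of 31 annotated CLEC genes in the table. The wider lectin list of 45 genes added the soluble collectin COLEC11 (-1.37) and the scavenger collectin COLEC12 (-2.27), both lower in the authors' deposited table. On the list of NOD-like receptors and inflammasome genes, 1 of 18 was higher and 1 lower: NLRP6 was at 2.50 and the cytokine IL1B at -3.97 in the authors' deposited table.

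PTAFR had the outermost value of the 8. It encodes the receptor for platelet-activating factor, a phospholipid mediator, and was at -2.06 (4.16-fold lower) in the authors' deposited table, the only member past 4-fold. FPR2, a formyl peptide receptor that also binds lipoxin and serum amyloid A, was at -1.78 (3.44-fold lower) there. The nearest listed symbols in value to PTAFR were ASPA at -2.07 and C22orf15 at -2.06 in the authors' deposited table, so PTAFR did not stand apart from its surroundings. PTAFR spans chr1:28147166-28193936 on the minus strand and FPR2 chr19:51752026-51770526 on the plus strand.

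The formyl peptide receptor family held a second listed gene. FPR1, the high-affinity receptor for bacterial formyl peptides, was at -1.25 (2.38-fold lower) in the authors' deposited table. Of 3 annotated FPR genes, 2 were listed, both lower, but FPR2 itself was chosen from the table. Of all annotated protein-coding genes 3.71% were listed, and of listed symbols 69.4% were lower. In GENCODE release 29 the FPR1 locus (chr19:51745172-51804110, minus strand) encloses FPR2, but no exon of FPR2 overlaps an exon of another gene. The FPR2 coding sequence is 79.1% identical to that of FPR1 over 90.1% of its length and 81.5% identical to that of FPR3 over its whole length, with no stretch at 95% identity. Of the 37 chemoattractant receptors on the list, FPR1, FPR2 and PTAFR were the 3 listed, and the complement receptors C5AR1 and C3AR1 were not. Outside that list, the authors' deposited table held 1 of 17 annotated CCR, CXCR and XCR chemokine receptors, CCR4, which was higher at 3.77 (13.6-fold).

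The G proteins and regulators that such receptors use gave 2 lower and 1 higher gene of 29. At the share of all protein-coding genes listed, their list would hold 1.08. GNA15, the alpha subunit of blood cells that couples many chemoattractant receptors to phospholipase C, was at -5.39 (41.8-fold lower) in the authors' deposited table. Its relative GNA14 was at -1.22 and RGS1, a GTPase activator that dampens such signals, at 1.58 there. GNAI2, the inhibitory alpha subunit that chemoattractant receptors chiefly use, and GNAQ were not in the table. A wider count over G protein subunits was added after their values were seen, and no test was made. Beside it stand 3.71% of all annotated protein-coding genes listed and 69.4% of listed symbols lower. Over all annotated G protein subunits, including those off the list of 29, 7 of 34 were listed, 4 lower and 3 higher. The further ones were GNG7 at -3.67, GNB3 at -1.60, GNAL at 1.84, GNB5 at 1.89 and GNGT1 at 2.02 in the authors' deposited table, and of 21 RGS genes RGS21 was also listed, at -1.23.

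ITGB2 had the value nearest to 0 of the 8. This gene for CD18, the beta chain shared by LFA-1, Mac-1 and related integrins, was at -1.22 (2.34-fold lower) in the authors' deposited table. Only 10.3% of the lower symbols lay nearer to 0, and the listed symbols next to it were THPO at -1.23 and ATP11A at -1.22 in the authors' deposited table. The lower gene nearest to 0 was SLC17A7 at -1.15 there, so ITGB2 exceeded the smallest lower entry by 0.0745 on the log2 scale. ITGB2 spans chr21:44885953-44931989 on the minus strand, and its exons overlap those of the antisense gene ITGB2-AS1.

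Not one of the alpha chains that pair with ITGB2 (ITGAL, ITGAM, ITGAX and ITGAD) was listed, beside 3.71% of all annotated protein-coding genes. Among all annotated integrin genes, 1 of 8 beta and 2 of 18 alpha subunits were listed: the collagen receptor chains ITGA2 at -1.28 and ITGA10 at 2.51 in the authors' deposited table. Neither forms a dimer with ITGB2. On the list of 39 leukocyte integrins, selectins and their ligands, the only other listed gene was THY1, a GPI-anchored protein that can bind Mac-1, at -2.18 in the authors' deposited table. The ligand ICAM1 and the integrin activator FERMT3 were not listed.

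LILRB3, a receptor with 4 rows of identical value, was at -1.91 (3.76-fold lower) in the authors' deposited table. It is found on monocytes and granulocytes and dampens activating signals in those cells. No other of the 10 annotated LILR genes was listed, and 0 of 10 genes on the list of phosphatases and related inhibitory proteins, which holds PTPN6 and PTPN11. Of 50 paired immunoglobulin-type receptors, SIGLEC15 was at 2.42 and NCR1, an activating receptor of natural killer cells that also uses FCER1G, at -1.55 in the authors' deposited table. The LILRB3 coding sequence is matched by LILRA6 over 69.2% of its length at 97.6% identity, so reads of these neighbours may have been exchanged.

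**Figure D2:**
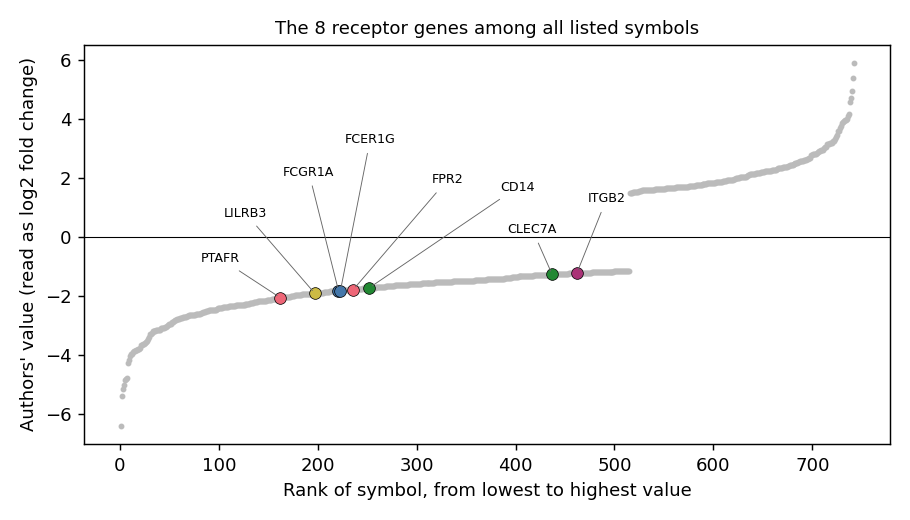
All 742 listed symbols ordered by value (vertical axis, read as log2 fold change), with the 8 genes marked and coloured by role as in the plot of their values. Of the 8, 6 lie in the middle of the lower symbols, and CLEC7A and ITGB2 lie near the end closest to 0.

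Among themselves the 8 genes covered 0.832 log2 units, a 1.78-fold ratio between the outermost and the innermost. Within this range, 5 genes (CD14, FPR2, FCER1G, FCGR1A and LILRB3) fell between -1.73 and -1.91 in the authors' deposited table. This interval of 0.183 was drawn at the values of CD14 and LILRB3, so no clustering is read from it. It held 10.9% of all lower symbols, these 5 included. The standard deviation across the 8 genes was 0.297, beside 0.761 across all lower symbols. By absolute value, PTAFR ranked 271, LILRB3 326, FCGR1A 370, FCER1G 372, FPR2 390, CD14 416, CLEC7A 664 and ITGB2 689 of the 742 symbols. The genes were thus of middling to small size within the table, and 1 of 8 passed 4-fold, against 34.2% of lower symbols. CLEC7A and ITGB2 lay under 1.50, the smallest value with which any higher gene was listed, as did 34.2% of lower symbols. At that minimum in both directions 6 members were left, and 59.9% of the remaining symbols were lower.

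The lists of receptors, partners and effectors gave 20 further listed genes out of 412, or 4.85%, beside 3.71% of all annotated protein-coding genes. Of these 20, 14 were lower and 6 higher, a median of -1.48 beside -1.44 for all 742 symbols in the authors' deposited table. Lower genes not yet named were the scavenger receptors SCARA5 (-1.48) and STAB1 (-1.62), the monocyte transcription factor KLF4 (-1.60) and the NADPH oxidase subunit NCF4 (-2.46) in the authors' deposited table. TFEC, a transcription factor of macrophages, was higher, at 3.86 there. Transcription factors that drive myeloid receptor genes, SPI1 and CEBPA, were not listed, and 0 of 20 myeloid growth factor receptors appeared.

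Markers of blood and stromal cells were counted alongside, because the described genes are markers themselves. Of 20 monocyte and macrophage markers, CD14 and FCGR1A were listed, and of 17 neutrophil markers FPR1 and FPR2, all lower. None of 13 dendritic cell markers was listed. The 12 mast cell and basophil markers gave HDC, which makes histamine, at 2.27 and the prostaglandin synthase HPGDS at -1.58 in the authors' deposited table. The 19 T and NK cell markers gave ZAP70, CD247 and NCR1, with the values above. For megakaryocytes the authors' deposited table gave the chemokine PPBP (3.89), the von Willebrand factor receptor chain GP1BA (-1.96) and ITGA2 (-1.28). Of 16 endothelial and fibroblast markers, 4 were listed, all lower. These were PDGFRB at -3.40, ENG at -2.64, THY1 at -2.18 and TAGLN at -1.43 in the authors' deposited table. Across the 9 marker lists, 17 of 149 genes were listed, 3 higher and 14 lower. This total includes CD14, FCGR1A and FPR2, which were chosen from the table and are all lower. Beside it stand 3.71% of all annotated protein-coding genes listed and 69.4% of listed symbols lower, and no test was made. Without levels per library, whether other cell types contributed to the values was not tested.

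**Figure D3:**
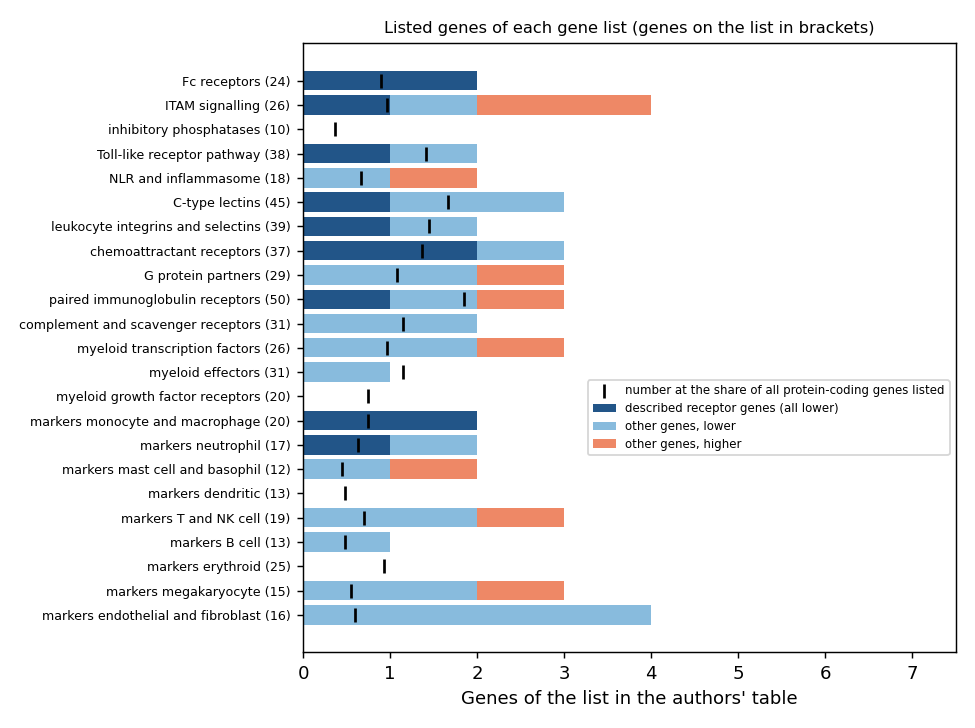
Number of genes of each list found in the authors' deposited table (horizontal axis), with the number of genes on the list in brackets. Dark bars are the 8 described genes, light blue bars other lower genes and orange bars higher genes; black ticks give the number each list would hold at the 3.71% of all protein-coding genes, and the longest bars hold 4 genes.

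The 8 genes lie on 5 chromosomes: 3 on chromosome 1, 2 on chromosome 19, and 1 each on chromosomes 5, 12 and 21. Of the 16 listed genes nearest to them, taken as a pair for each member, 13 were lower and 3 higher (81.3% lower), beside 69.4% of all listed symbols. FCER1G had ARHGAP30, a GTPase-activating protein, 145 kb away at -1.81 in the authors' deposited table, and then FAM78B at -1.68 at a distance of 4837 kb. CLEC7A, which lies in the gene complex for natural killer cell lectins, had KLRF1, a receptor of those cells, 272 kb away at -1.85, and A2M 1001 kb away at -1.24 in the authors' deposited table. Next to FCGR1A lay the histone gene HIST2H4B at -1.56 (61.5 kb) and BOLA1 at -1.16 (95.4 kb) in the authors' deposited table. The other neighbours were of both directions. Those of CD14 were SLC25A2 (-2.84) and PCDH12 (2.29), those of PTAFR RAB42 (1.69) and KDF1 (-1.31), and those of ITGB2 PCBP3 (-3.09) and UBASH3A (-1.34) in the authors' deposited table. Beyond FPR1, the nearest to FPR2 was CEACAM18 at 2.23 in the authors' deposited table.

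LILRB3 lies in the leukocyte receptor complex at chr19:54216278-54223506, minus strand, among the LILR and KIR immunoglobulin-type receptors. Within 1000 kb on either side, 5 of 65 annotated protein-coding genes were listed, all lower, of which LILRB3 was chosen for being listed. Without it the count was 4 of 64 (6.25%), beside 3.71% of all protein-coding genes listed and 69.4% of listed symbols lower, and no test was made. Besides LILRB3 these were the neighbour TMC4 at -1.94 (43.0 kb away), TTYH1 at -1.29 (192 kb), NCR1 at -1.55 (683 kb) and ZNF525 at -1.63 in the authors' deposited table. The 6 KIR genes annotated there were not listed. Several rows were given to genes of this region: TMC4 filled 10 rows, NCR1 18, and LILRB3 and TTYH1 4 each, always with 1 identical value per gene. Of the 8 symbols with 4 or more rows in the authors' deposited table, these were 4, and the other 4 (MDC1, RNF39, TRIM10 and COL11A2) lay on chromosome 6 between 28 and 34 Mb, in the major histocompatibility region. Both regions are known to vary between people, and the GRCh38 assembly carries alternate versions of them; whether the repeated rows come from these was not tested.

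**Figure D4:**
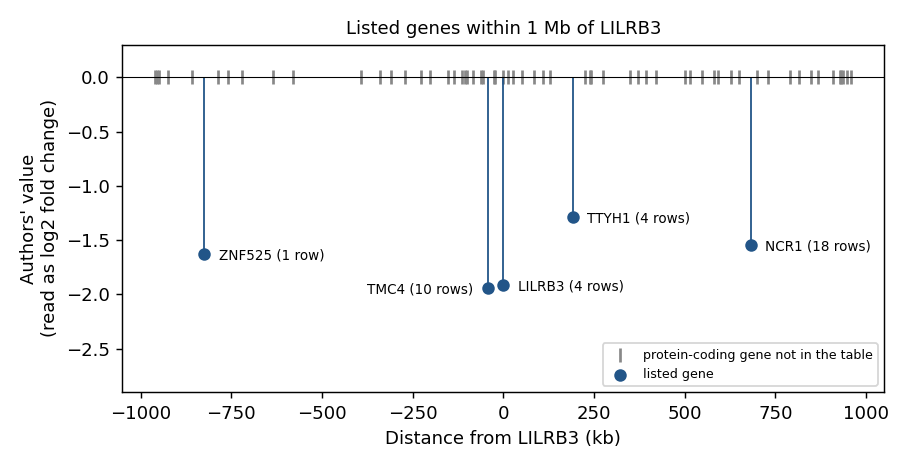
Protein-coding genes within 1000 kb of LILRB3, by distance in kb (horizontal axis) and value in the authors' deposited table (vertical axis, read as log2 fold change). Grey ticks are genes not in the table; the 5 listed genes are all lower, and 4 of them fill several rows, as written beside each point.

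Promoter sequence was not used directly in the choice of genes, which was by function and by presence in the authors' deposited table. Unlisted genes of the same function were not compared, so nothing about the knockdown is read from the promoters. RefSeq promoters (GRCh38.p14) were matched for 6 of the 8 genes, without CLEC7A and ITGB2, and the 250 bases before the start were examined. The ratio of observed to expected CpG dinucleotides was 0.101 for FCGR1A, 0.137 for LILRB3, 0.158 for PTAFR, 0.268 for CD14, 0.283 for FPR2 and 0.347 for FCER1G. All 6 lay under the median of 0.737 over 15843 protein-coding promoters. Other lower symbols had a median of 0.591 (interquartile range 0.264 to 0.821, 355 promoters) and higher symbols 0.575 (0.213 to 0.805, 181 promoters). Of the other lower symbols, 65.9% lay under the median of all promoters, so CpG-poor starts were common in the table in both directions. GC content was 40.0% to 63.6% in the 6 promoters, around a median of 56.4%, beside 62.4% over all promoters.

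**Figure D5:**
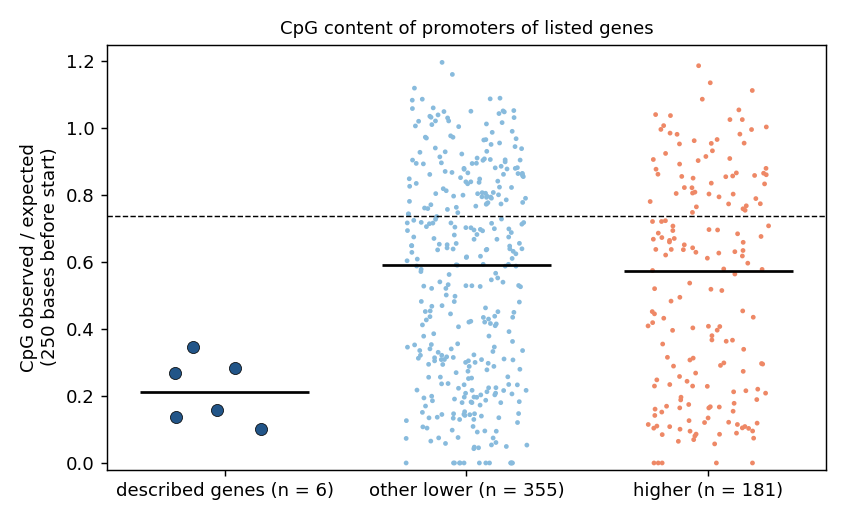
Ratio of observed to expected CpG (vertical axis) in the 250 bases before the start, for 6 described genes, 355 other lower and 181 higher symbols. Points are genes, solid bars group medians and the dashed line the median of all protein-coding promoters (0.737); the 6 described genes lie between 0.101 and 0.347.

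Short letter motifs were searched on both strands of these 250 bases. GAGGAAG, a form bound by the myeloid factor PU.1, occurred in 2 of the 6 (FCGR1A and CD14) and in 11.7% of all protein-coding promoters. It was in 13.8% of the promoters of other lower symbols and 19.3% of those of higher symbols. The CD14 match overlaps an annotated exon and is not shown. In FCGR1A the motif begins 47 bases before the RefSeq start, on the reverse strand. The bases around it without an annotated exon are shown with the motif in capitals.
FCGR1A, chr1:149782587-149782670, plus strand, GRCh38.p14: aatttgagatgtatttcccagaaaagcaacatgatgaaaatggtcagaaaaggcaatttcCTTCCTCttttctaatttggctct
The AP-1 motif TGANTCA occurred in 2 of the 6 (CD14 and PTAFR) and in 5.04% of all promoters. Among other lower and higher symbols its shares were 4.2% and 5.5%. The GATA motif AGATAA occurred in 1 of the 6 (LILRB3) and in 6.84% of all promoters. For GATA the shares were 7.61% of other lower and 16.6% of higher symbols. GGGCGG, the GC box, occurred in 2 of the 6 (FCER1G and PTAFR) against 56.0% of all, 52.7% of other lower and 50.3% of higher symbols. TTGCNNAA (C/EBP) and TATAAA were in none of the 6 windows and in 7.23% and 9.23% of all promoters. No 1 motif was shared by more than 2 of the 6, and a match of letters is a description of the sequence, not a bound site.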

How the data were processed

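RNA-seq compared 2 scramble and 2 HMRHL siRNA libraries of K562 cells. Cuffdiff, Cufflinks, TopHat, Bowtie2, SAMtools 1.3.1 and Trim Galore 0.4.4 are named, per the submitters' processing notes, with GRCh38 and hg38 as builds and no order, settings or entry threshold. The authors deposited a fold change per gene, which was read as log2 because both signs occur and 755 of 831 values have 6 significant digits, as Cuffdiff prints; a signed linear fold is possible. Depth is unknown.

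Each symbol was counted once (831 rows, 742 symbols). Symbols were matched to GENCODE release 29 (740 directly, 1 by an older symbol, 1 not at all); 740 protein-coding genes of 19936 were listed. Coding sequences were compared with all annotated transcripts by BLAST 2.17.0. The promoter motif searches were tested on simulated sequences, and the pattern searches in coding sequences were not. Where a gene had several RefSeq promoters, the first was used; proteins were not used here.

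The members and lists were chosen with earlier results of these data known. Named are the members, the listed genes of each list (at most 6 or the 4 largest), the 2 nearest listed genes on the chromosome, neighbours in value and similar genes; ITGA10, CCR4, further G protein and RGS genes and the repeated symbols were added after their values were seen. A gene that this rule selects is not reported here. No test of change could be made. Alternatives were other minimums, rows, older symbols, near-identical copies (95% identity over 50% of the transcript), scale and direction. Python 3.11.15, numpy 2.4.6, pandas 2.3.3 and matplotlib 3.10.9 were used.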

Additional observations from a re-analysis of the deposited data

How the results depend on the processing

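Of the 8 lower members, 6 were left when lower genes too had to reach 1.50, 7 without FCGR1A, which has a near-identical copy, and 1 (PTAFR) at 4-fold; counted by rows they were 11. LILRB3, matched by LILRA6 over 47.4% of its longest transcript, fell short of the 50% set for a near-identical copy. Read as scramble relative to knockdown, 0 members would be lower and all 8 higher. Read as a signed linear fold change, the median would be 1.80-fold in place of 3.48-fold, with the same ranks. On all lists together, members included, 29 lower and 8 higher genes were listed. At the minimum of 1.50, 19 lower genes were left, and at 4-fold 15 genes, 8 of them lower. Older symbols changed no count. No paired analysis was possible because the table holds no values per library; leaving out replicates, other pseudocounts, filters and other tools were not run for the same reason.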
